A study of Mus musculus with 6 samples.

Results

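The Hox genes were examined in E15.5 mouse embryos, whose back skin was profiled by RNA sequencing. The members are the 39 genes whose symbol in the deposited count table is Hox, then a cluster letter from a to d and a paralog number. They are 39 of 55401 gene identifiers in that table. HoxA holds 11 of them, HoxB 10, HoxC 9 and HoxD 9. Of the 39, 31 passed the filter on low counts and entered the test, and 8 did not.

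The study compared 3 Prmt5 cKO embryos with 3 control embryos, 1 library from each embryo. The series describes the cKO as an epidermal loss of PRMT5, an arginine methyltransferase of histones and splicing proteins. The genotype labels read Prmt5 cKO and control, with no alleles for either group. The authors' deposited workbook marks the mutant group CRECT in its name, which the labels do not explain, and the sources used here do not give the promoter that drives the Cre. The dissected back skin held epidermis together with dermis, and no strain or sex is given. Each value is therefore a level over all the cells of the skin, and fewer cells of a type and less RNA per cell cannot be told apart.

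Hox genes encode homeodomain transcription factors that give cells their position along the body axis. Mammals carry them in the clusters HoxA, HoxB, HoxC and HoxD, in which genes with low paralog numbers act toward the head and genes with high numbers act toward the tail and in the distal limb. Dermal fibroblasts keep a Hox pattern that reflects their site on the body, and keratinocytes also express Hox genes. Many Hox proteins bind DNA together with PBX and MEIS proteins, and Polycomb and Trithorax proteins are known to hold Hox loci silent or active.

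Prmt5 had 27.1, 30.7 and 26.8 CPM in cKO libraries 1, 2 and 3, against 69.7, 40.1 and 67.9 CPM in control libraries 1, 2 and 3. CPM is a count scaled to library size, with TMM factors. The groups did not overlap, control library 2 was the lowest control, and the log2 fold change was -1.07 ± 0.19 (SE), adjusted p = 0.00292 by edgeR's quasi-likelihood test. Library totals ran between 35667634 and 66122667 counts. Tissue markers differed between the groups. The summed level of the 15 pan-epithelial markers ranged over 2758 to 3139 CPM in cKO libraries and 5802 to 6236 CPM in control libraries, and 12 of the 15 fell while 3 rose. The 21 dermal fibroblast markers summed to between 66948 and 87383 CPM in cKO libraries and between 44269 and 55137 CPM in control libraries, with 17 higher and 2 lower. All 20 skeletal muscle markers were higher, at a sum of 9329 to 9636 CPM in cKO libraries and 4077 to 5627 CPM in control libraries. The kidney and gut list, which would mark deeper tissue, summed to 2.60 to 3.07 CPM in cKO libraries and 3.68 to 4.91 CPM in control libraries, with Fabp1 and Foxa2 at 0. Of the 14 endothelial markers 10 rose and 0 fell, of the 10 leukocyte markers 5 rose and 0 fell, and of the 10 tested cartilage markers 2 rose and 0 fell. Of the 9 Schwann cell markers 2 rose and 2 fell, and of the 8 melanocyte markers 2 rose and 0 fell. Over all tested genes, 16.3% were called higher and 19.6% lower. The part of these marker shifts in the Hox results was not tested.

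Hox genes moved in both directions in Prmt5 cKO skin. Hoxb9, Hoxd8, Hoxd3, Hoxc5, Hoxc6 and Hoxd1 rose, and 4 members fell, among them Hoxa7, Hoxb8 and Hoxb7. The called rises lay in HoxB, HoxC and HoxD, and the called falls lay in HoxA and HoxB. The log2 fold changes of the 31 tested members ran from -0.96 for Hoxb8 to 1.21 for Hoxd3, around a median of -0.01, and the median over all 19227 tested genes was also -0.01. Genes were called at an adjusted p under 0.05 by edgeR's quasi-likelihood test, with the adjustment over all genes.

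The share of Hox genes called was near that of all genes. Of the 31 tested members, 10 (32.3%) were called, against 35.9% of all tested genes. Higher calls were 6 members (19.4%), against 16.3% of all tested genes, and lower calls were 4 members (12.9%), against 19.6%. Without cKO library 1 or without control library 1, the higher calls were 3 members. The groups did not overlap in CPM for 13 members, against 49.9% of all tested genes. These directions are those of libraries scaled by TMM. With libraries scaled to the pan-epithelial list, which moves the all-gene median up by 1.01 in log2 units, Hoxa7, Hoxb8 and Hoxb7 took positive signs. They were not called there (adjusted p of 0.118, 0.786 and 0.0816 by edgeR). With libraries scaled to the dermal fibroblast list, which moves that median by -0.59, Hoxc5, Hoxc6 and Hoxd8 took negative signs. They were not called there (adjusted p of 0.552, 0.475 and 0.397 by edgeR), and no Hox gene was called higher. Each scaling shifts all genes by nearly the same amount, so the distance of a gene from the median gene is nearly fixed by construction. With the dermal fibroblast scaling that distance was -0.97 for Hoxb8 and 0.91 for Hoxb9, which was not called there.

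**Figure D1:**
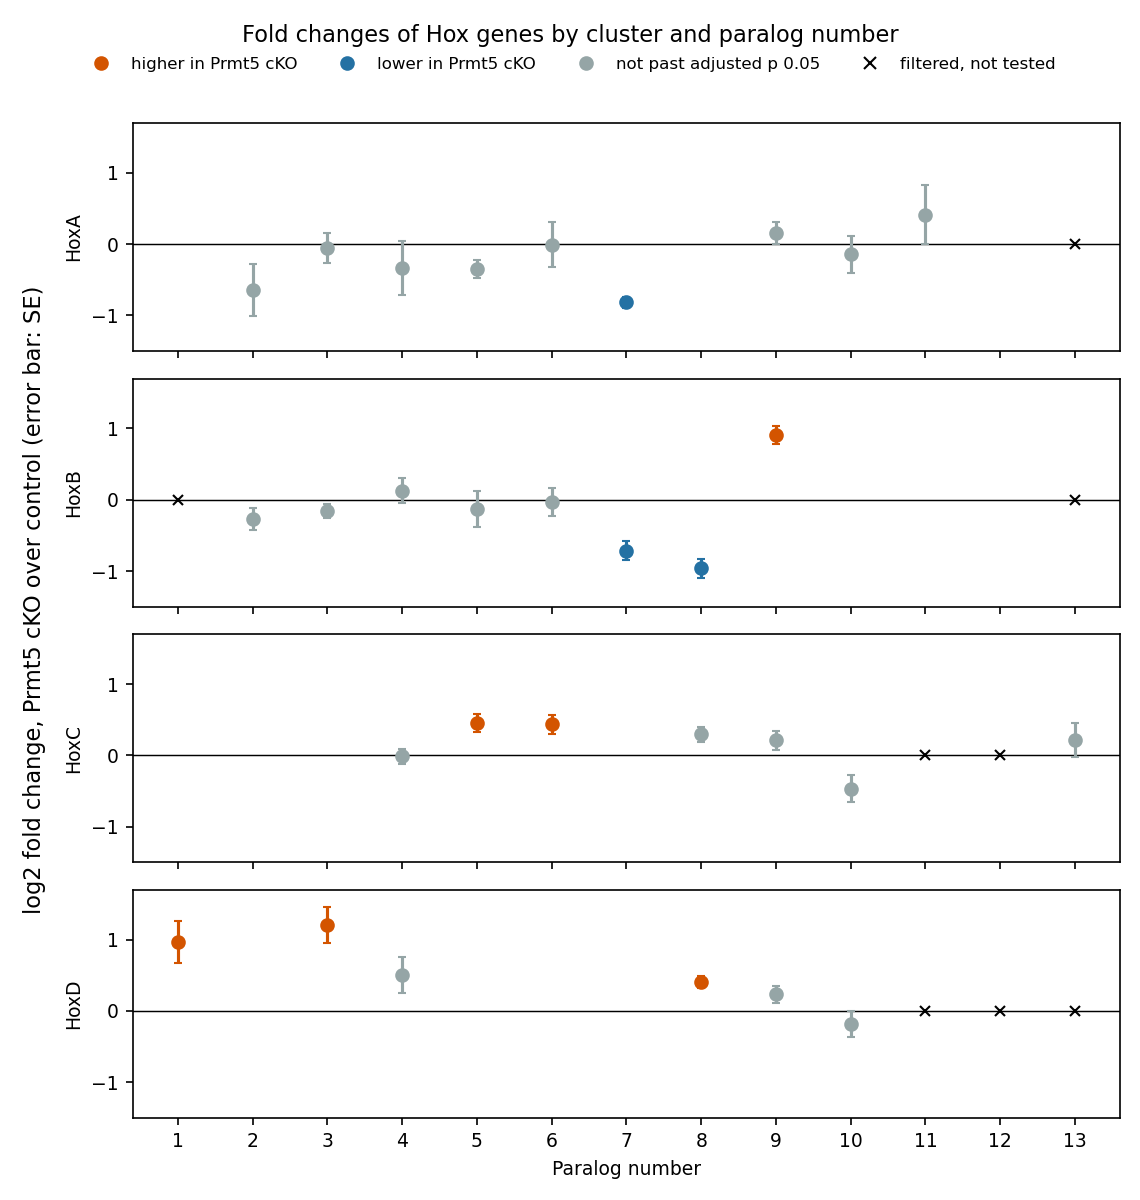
Log2 fold change of tested Hox genes (Prmt5 cKO over control, TMM scaling, error bars SE) against paralog number, with 1 panel per cluster, and crosses at 0 for the 8 members below the count filter. Blue points, lower in Prmt5 cKO, lie in HoxA and HoxB, and orange points, higher in Prmt5 cKO, lie in HoxB, HoxC and HoxD. Scaling to the pan-epithelial list turns the blue points positive, and scaling to the dermal fibroblast list turns Hoxc5, Hoxc6 and Hoxd8 negative. Of these, Hoxa7, Hoxb7, Hoxb8, Hoxc5, Hoxc6 and Hoxd8 were not called in the new direction.

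Levels between genes were compared as RPKM, the TMM-scaled CPM divided by the kilobases of annotated exon. The back skin expressed most Hox genes of the trunk, with 25 members above 1 RPKM in cKO skin and 24 in control skin. Hoxd8, a trunk paralog, was the most abundant Hox gene in both groups, at 19.3 ± 1.76 RPKM in cKO skin and 14.6 ± 0.946 RPKM in control skin (SD, n = 3 each). In HoxC the most abundant member was Hoxc8, which patterns thoracic vertebrae and brachial motor neurons in mice, at 10.7 ± 0.946 RPKM in cKO skin and 8.68 ± 1.13 RPKM in control skin (SD, n = 3 each). In HoxA it was Hoxa7, at 6.37 ± 0.246 RPKM in cKO skin and 11.2 ± 0.786 RPKM in control skin (SD, n = 3 each).

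The order of the levels differed between the groups for several members. Hoxa7 ranked 5 among Hox genes in cKO skin and 2 in control skin. Hoxb9 ranked 3 in cKO skin, at 9.13 ± 1.58 RPKM, and 7 in control skin, at 4.84 ± 0.251 RPKM (SD, n = 3 each). In cKO skin the means of Hoxc8 and Hoxb9 lay within their spread of each other, and so did those of Hoxc6 and Hoxa7. In HoxB the most abundant member was Hoxb9 in cKO skin and Hoxb7 in control skin, where Hoxb7 had 4.97 ± 0.678 RPKM and did not differ from Hoxb9 beyond that spread. Hoxc6 ranked 4 in both groups, at 7.10 ± 1.00 RPKM in cKO skin and 5.24 ± 0.593 RPKM in control skin (SD, n = 3 each).

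**Figure D2:**
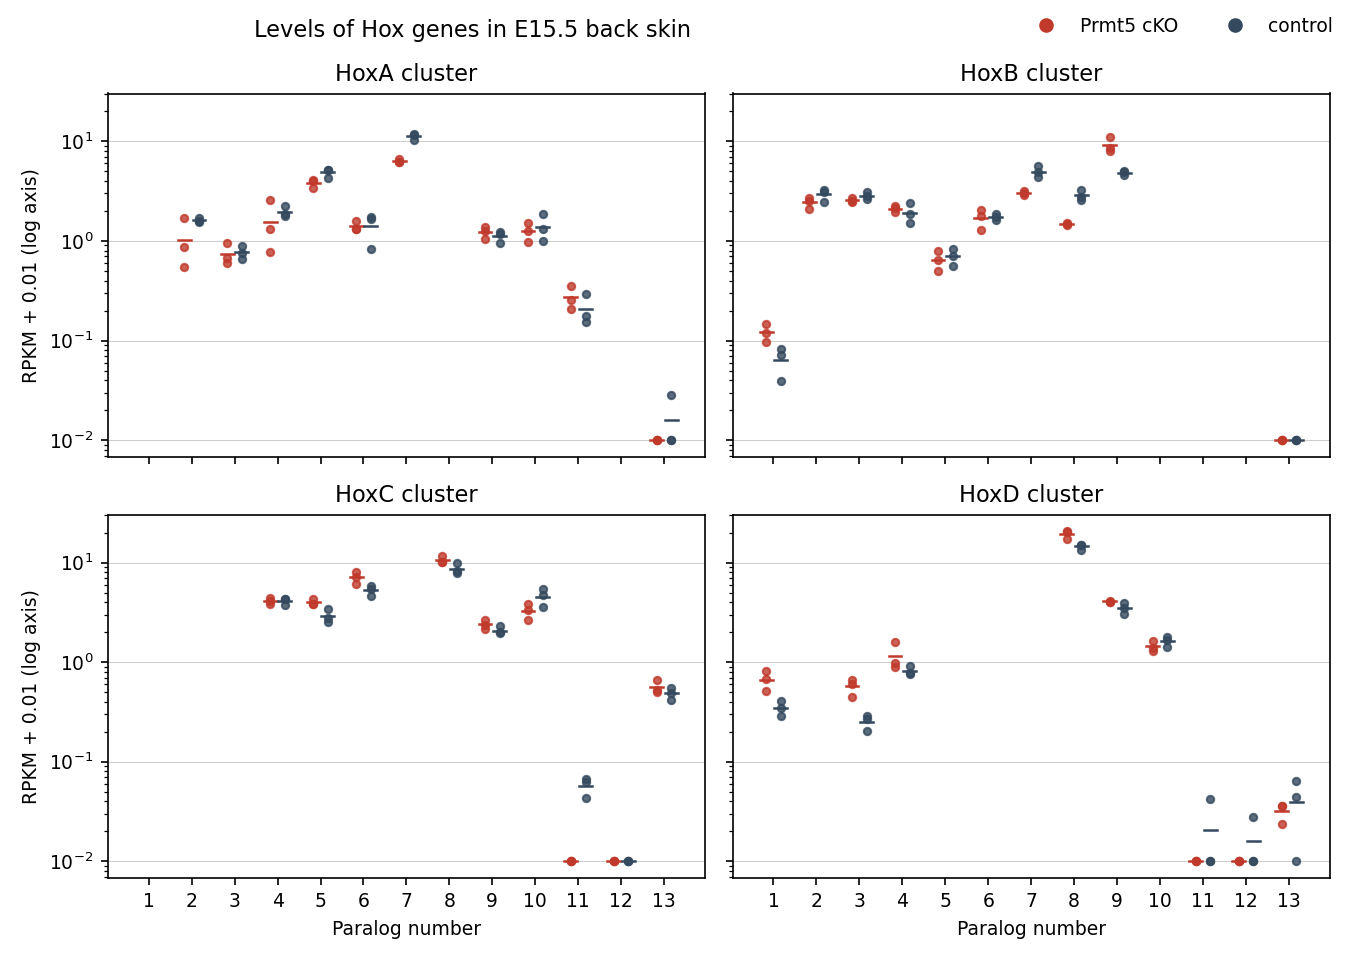
Level of Hox genes in every library (RPKM plus 0.01, log axis) against paralog number, 1 panel per cluster, Prmt5 cKO left of control at each number, with short lines at the group means. Members with paralog numbers 4 to 9 hold the highest levels, led by Hoxd8, and numbers 11 to 13 lie near or at 0 except Hoxc13 and Hoxa11.

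Among the members that fell, Hoxa7, Hoxb8 and Hoxb7 are middle paralogs of HoxA and HoxB. Hoxa7 (ENSMUSG00000038236.8, GRCm38 chromosome 6, 52214491 to 52221854, minus strand) acts in the patterning of the thoracic skeleton. It had 19.1, 18.0 and 17.9 CPM in cKO libraries 1, 2 and 3, against 33.0, 34.0 and 29.7 CPM in control libraries 1, 2 and 3. Every cKO library lay well below the lowest control, at 56.9% of the control mean, and the log2 fold change was -0.82 ± 0.08 (SE), adjusted p = 9.6e-05 by edgeR's quasi-likelihood test.

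Hoxb8 (ENSMUSG00000056648.5, chromosome 11, 96281905 to 96285315, plus strand) is known in mice for roles in axial patterning and in blood progenitors. It had 3.86, 3.99 and 3.75 CPM in cKO libraries 1, 2 and 3, against 6.81, 8.55 and 7.26 CPM in control libraries 1, 2 and 3. The cKO libraries were close together and all below the controls, with a log2 fold change of -0.96 ± 0.13 (SE), adjusted p = 0.000757 by edgeR. Its neighbour Hoxb7 (ENSMUSG00000038721.8, chromosome 11, 96286623 to 96290162, plus strand) begins 1307 bases beyond the end of Hoxb8 in the annotation. Hoxb7 had 4.88, 4.48 and 4.69 CPM in cKO libraries 1, 2 and 3, against 8.79, 7.5 and 6.72 CPM in control libraries 1, 2 and 3. The groups did not overlap, and the log2 fold change was -0.71 ± 0.14 (SE), adjusted p = 0.00405 by edgeR. Both paralogs numbered 7, Hoxa7 and Hoxb7, thus fell with TMM scaling. With the pan-epithelial scaling both took positive signs and were not called. Leaving out any 1 of the 6 libraries kept the calls of Hoxa7, Hoxb7 and Hoxb8.

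The Hox clusters also encode microRNAs. miR-196, made from loci in HoxA, HoxB and HoxC, is known to repress several Hox mRNAs through sites in the 3′ untranslated region, and to direct cleavage of Hoxb8 mRNA in mouse embryos. Its mature forms are shown because their seed (bases 2 to 8, in capitals) has matches in Hoxa7 and Hoxb7, which fell. The sequences are from RefSeq, GRCm38.p6. miR-196a is encoded at chr11:96265187-96265208 and at chr15:102973365-102973386, both on the plus strand, and miR-196b at chr6:52230129-52230150 on the minus strand.
mmu-miR-196a-5p: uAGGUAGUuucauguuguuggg
mmu-miR-196b-5p: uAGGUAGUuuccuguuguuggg

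The match to that seed in DNA letters, ACTACCT, occurs in the longest annotated 3′ untranslated region of 9 of the 39 Hox genes, and in 1283 of 20997 genes with such a region (6.11%). The median length of that region was 966 bases in Hox genes and 962 bases in all genes. Of the members that fell, Hoxa7 has 4 matches and Hoxb7 has 1. Of the 6 members that rose, 0 have a match. Hoxa4, Hoxa5, Hoxa9, Hoxb6 and Hoxc8 have a match and were not called, and Hoxb1 has a match and was not tested. Log2 fold changes were -0.33, -0.35 and -0.03 for Hoxa4, Hoxa5 and Hoxb6, and 0.16 and 0.29 for Hoxa9 and Hoxc8. In the authors' deposited DESeq2 table Hoxc8, with 2 matches, was called higher (adjusted p = 0.0336). A link between the matches and the changes was not tested. The sites of Hoxa7, Hoxb7 and Hoxc8 are given on the gene's strand in GRCm38, with the seed match in capitals. Those of Hoxa7 lie at chr6:52215400-52215421, chr6:52215363-52215384, chr6:52215231-52215252 and chr6:52215210-52215231, and that of Hoxb7 at chr11:96289784-96289805. Those of Hoxc8 lie at chr15:102992976-102992997 and chr15:102993733-102993754.
Hoxa7 site 1: ggcacagccaaaatACTACCTa
Hoxa7 site 2: agaggcactcccaaACTACCTa
Hoxa7 site 3: aaaccatgatcaatACTACCTa
Hoxa7 site 4: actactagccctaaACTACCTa
Hoxb7 site: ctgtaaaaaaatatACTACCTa
Hoxc8 site 1: cactcacaactctaACTACCTg
Hoxc8 site 2: taaatctttaacatACTACCTa

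Hoxb8 has no seed match of that form. It has a stretch at chr11:96284888-96284909 (GRCm38, plus strand) that pairs with 22 of 22 bases of miR-196a, 21 by Watson-Crick pairs, in capitals, and 1 by a G:U pair.
Hoxb8 site: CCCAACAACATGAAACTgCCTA

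A stretch with at least 20 such paired bases occurs in 239 of 20914 genes searched, and Hoxb8 is the only Hox gene among them. The matches to miR-196 are shown in full because of the members that fell, after their values were seen. The seed match of miR-10, a family encoded in HoxB and HoxD, is ACAGGGT, and it occurs in 4 of the 39 Hox genes and in 12.5% of all genes. It is present in Hoxd1, which rose, in 1 member that fell, and in Hoxa3 and Hoxb3, which were not called. Mature microRNAs are not captured by these mRNA libraries. The hairpin gene Mir196a-1 had 21, 19 and 16 counts in cKO libraries and 16, 11 and 5 counts in control libraries, and was not called (log2 fold change 0.72, adjusted p = 0.303 by edgeR's quasi-likelihood test).

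Hoxb9 rose the most among abundant members, and it lies next to the pair that fell. Hoxb9 (ENSMUSG00000020875.9, chromosome 11, 96271457 to 96276595, plus strand) acts with its paralogs in the patterning of the thoracic segments in mice. It had 28.1, 20.4 and 22 CPM in cKO libraries 1, 2 and 3, against 13, 12.7 and 11.7 CPM in control libraries 1, 2 and 3. Every cKO library lay above every control, with cKO library 1 the highest, and the log2 fold change was 0.91 ± 0.13 (SE), adjusted p = 0.000759 by edgeR. The gap between the annotated ends of Hoxb9 and Hoxb8 is 5309 bases. All 4 paralogs numbered 9 had positive log2 fold changes with TMM scaling, between 0.16 and 0.91, of which Hoxb9 alone was called. With the dermal fibroblast scaling Hoxa9, Hoxc9 and Hoxd9 took negative signs, at -0.45, -0.37 and -0.35, and were not called.

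Hoxd8 (ENSMUSG00000027102.4, chromosome 2, 74704615 to 74707933, plus strand) had 55.1, 47.6 and 56.6 CPM in cKO libraries 1, 2 and 3, against 37.0, 41.6 and 41.4 CPM in control libraries 1, 2 and 3. The groups did not overlap, and the log2 fold change was 0.41 ± 0.08 (SE), adjusted p = 0.00509 by edgeR. Paralogs numbered 8 thus split with TMM scaling, with Hoxd8 higher, Hoxb8 lower and Hoxc8 not called. The promoters of Hoxb8 and Hoxd8 are shown for this contrast, as 300 bases from RefSeq (GRCm38.p6) at chr11:96281655-96281954 and chr2:74704365-74704664, both on the plus strand. Capitals mark matches on either strand to TATAAA, the sequence of the TATA box, and to the PBX-HOX motif TGATNNAT.
Hoxb8 promoter: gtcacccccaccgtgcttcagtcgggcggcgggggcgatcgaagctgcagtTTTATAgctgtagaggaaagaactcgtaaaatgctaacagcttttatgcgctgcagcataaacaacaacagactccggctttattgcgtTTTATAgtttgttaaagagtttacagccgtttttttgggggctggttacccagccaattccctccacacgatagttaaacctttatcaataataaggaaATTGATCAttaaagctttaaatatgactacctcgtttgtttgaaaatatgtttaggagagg
Hoxd8 promoter: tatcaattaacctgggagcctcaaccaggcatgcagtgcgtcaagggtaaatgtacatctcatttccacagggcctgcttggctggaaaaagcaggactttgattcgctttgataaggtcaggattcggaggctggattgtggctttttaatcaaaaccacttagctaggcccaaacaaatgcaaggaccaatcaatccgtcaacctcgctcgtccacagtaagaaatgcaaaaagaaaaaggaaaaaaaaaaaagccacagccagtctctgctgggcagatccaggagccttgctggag

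The Hoxb8 window holds 2 matches to TATAAA and 1 to TGATNNAT, and the Hoxd8 window holds 0 of either. The 2 matches to TATAAA read TTTATA, so they lie on the strand opposite to the gene. Whether they act as a TATA box was not tested. Over all 32851 promoters of this length, 13.6% hold TATAAA and 8.85% hold TGATNNAT, and the 2 motifs do not overlap in the Hoxb8 window. Of the 39 Hox genes, 22 had an entry in the promoter table, of which Hoxa10, Hoxb8, Hoxd13 and Hoxd4 hold TATAAA and Hoxa2, Hoxb1, Hoxb8 and Hoxd11 hold TGATNNAT. No entry was matched for the called members Hoxb7, Hoxb9, Hoxc5 and Hoxc6. The window of Hoxa7, which fell, holds 0 matches to either motif. A link between these motifs and the changes was not tested.

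Hoxd3 and Hoxd1, low paralogs of HoxD, rose, and both were among the less abundant Hox genes. Hoxd3 (ENSMUSG00000079277.9, chromosome 2, 74711927 to 74748442, plus strand), which patterns the first cervical vertebrae, had 2.49, 2.74 and 1.81 CPM in cKO libraries 1, 2 and 3, against 0.812, 1.07 and 1.17 CPM in control libraries 1, 2 and 3. The groups did not overlap, and the log2 fold change was 1.21 ± 0.25 (SE), adjusted p = 0.00618 by edgeR. The annotation places 62.3% of the exonic bases of Hoxd3 also in exons of Hoxd4 or of the read-through model Gm28230 on the same strand, so the counts of these genes are uncertain. Gm28230 averaged 4.15 CPM in cKO skin and 4.24 CPM in control skin, a log2 fold change of -0.03 (not called), and Hoxd4 had a log2 fold change of 0.50 (adjusted p = 0.162 by edgeR).

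Hoxd1 (ENSMUSG00000042448.5, chromosome 2, 74762980 to 74765142, plus strand) is known in mouse sensory neurons for the wiring of pain fibres. It had 1.49, 1.23 and 0.939 CPM in cKO libraries 1, 2 and 3, against 0.518, 0.619 and 0.740 CPM in control libraries 1, 2 and 3. The groups did not overlap, and the log2 fold change was 0.97 ± 0.30 (SE), adjusted p = 0.035 by edgeR. Of the 12 neuron markers 8 were tested, 2 rose and 1 fell, and the summed level of the 12 was 98.4 to 106.7 CPM in cKO libraries and 83.6 to 93.8 CPM in control libraries. Their part in the Hoxd1 result was not tested. The call of Hoxd1 was lost on leaving out cKO library 1 or 2 or control library 1 or 2, with adjusted p between 0.0833 and 0.114 by edgeR.

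Hoxc5 and Hoxc6 are neighbours in HoxC with overlapping annotated spans, and act at cervical and upper thoracic levels. Hoxc5 (ENSMUSG00000022485.3, chromosome 15, 102967443 to 103017429, plus strand) had 13.2, 11.7 and 11.9 CPM in cKO libraries 1, 2 and 3, against 7.71, 10.4 and 8.63 CPM in control libraries 1, 2 and 3. Its log2 fold change was 0.46 ± 0.13 (SE), adjusted p = 0.025 by edgeR, and the groups did not overlap. Hoxc5 shares 166 exonic bases with Hoxc10 on the same strand, 5.4% of its own. Hoxc6 (ENSMUSG00000001661.5, chromosome 15, 102998257 to 103011881, plus strand) had 19.5, 14.7 and 17.1 CPM in cKO libraries 1, 2 and 3, against 13, 13.8 and 11.0 CPM in control libraries 1, 2 and 3. The lowest cKO library lay just above the highest control, with a log2 fold change of 0.43 ± 0.13 (SE), adjusted p = 0.0317 by edgeR. Both calls were lost on leaving out cKO library 1 or 3 or control library 1 or 3, with adjusted p by edgeR between 0.0533 and 0.0851 for Hoxc5 and between 0.0555 and 0.108 for Hoxc6.

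**Figure D3:**
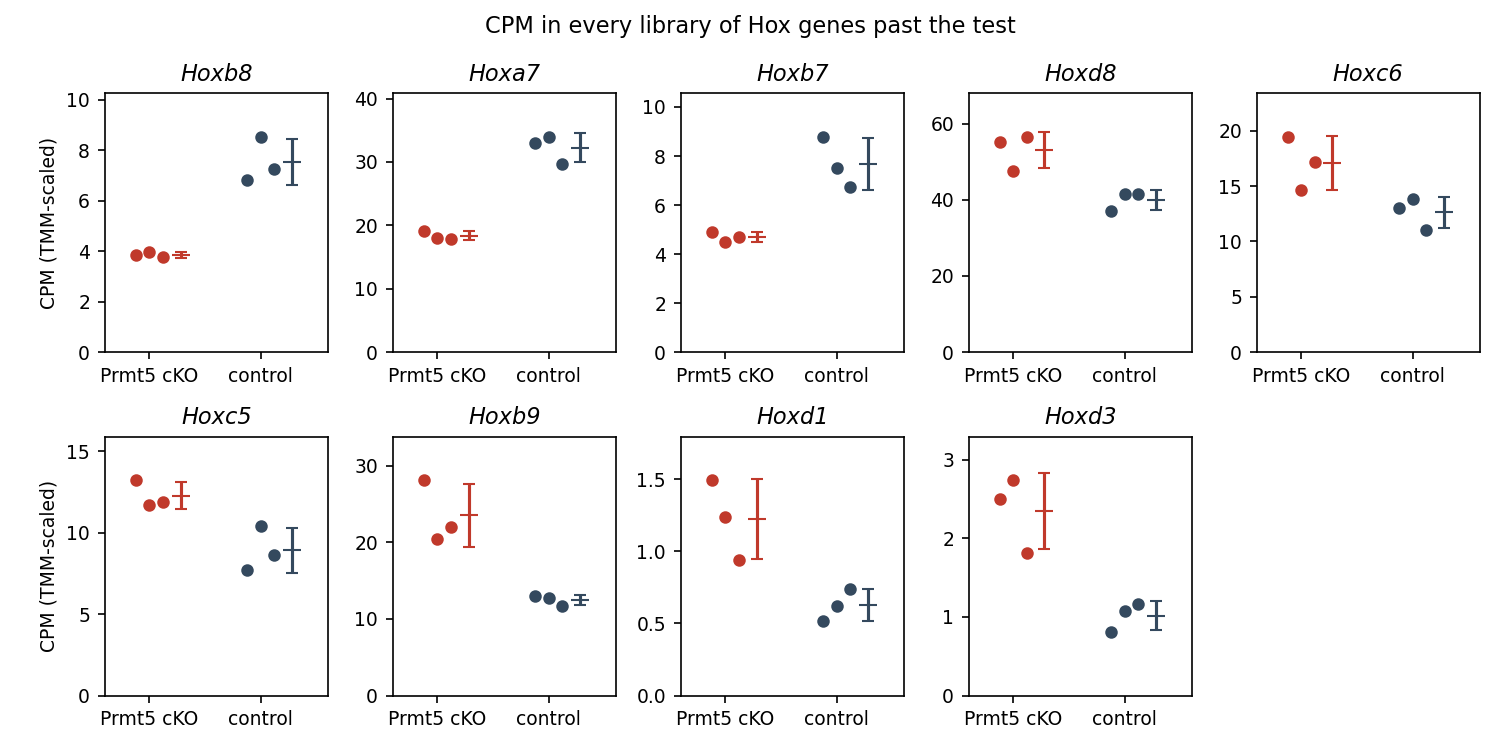
CPM (TMM-scaled) in every library of 9 Hox genes past the test, Prmt5 cKO left of control, points for libraries and a bar for the mean with SD beside them, ordered by log2 fold change. In each panel the 3 Prmt5 cKO libraries and the 3 control libraries do not overlap. With the pan-epithelial scaling the 3 lower genes turn positive, and with the dermal fibroblast scaling Hoxc5, Hoxc6 and Hoxd8 turn negative. None of these genes was called in the new direction.

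Ratios of counts between Hox genes within a library do not depend on how libraries are scaled. Hoxb9 had 7.28, 5.11 and 5.86 counts per count of Hoxb8 in cKO libraries 1, 2 and 3, against 1.90, 1.48 and 1.62 in control libraries 1, 2 and 3. Hoxb9 had 5.76, 4.55 and 4.69 counts per count of Hoxb7 in cKO libraries, against 1.47, 1.69 and 1.75 in control libraries. In each pair the lowest cKO library exceeded the highest control library. Between clusters, Hoxd8 had 2.88, 2.65 and 3.16 counts per count of Hoxa7 in cKO libraries, against 1.12, 1.22 and 1.40 in control libraries. Hoxc8, which was not called itself, had 7.45, 7.15 and 8.86 counts per count of its paralog Hoxb8 in cKO libraries, against 3.40, 3.31 and 3.08 in control libraries. Hoxc6 had 1.02, 0.816 and 0.958 counts per count of Hoxa7 in cKO libraries, against 0.395, 0.406 and 0.372 in control libraries. The pairs were chosen after their values were seen, so the ratios are a description of unequal change between genes, with no test.

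**Figure D4:**
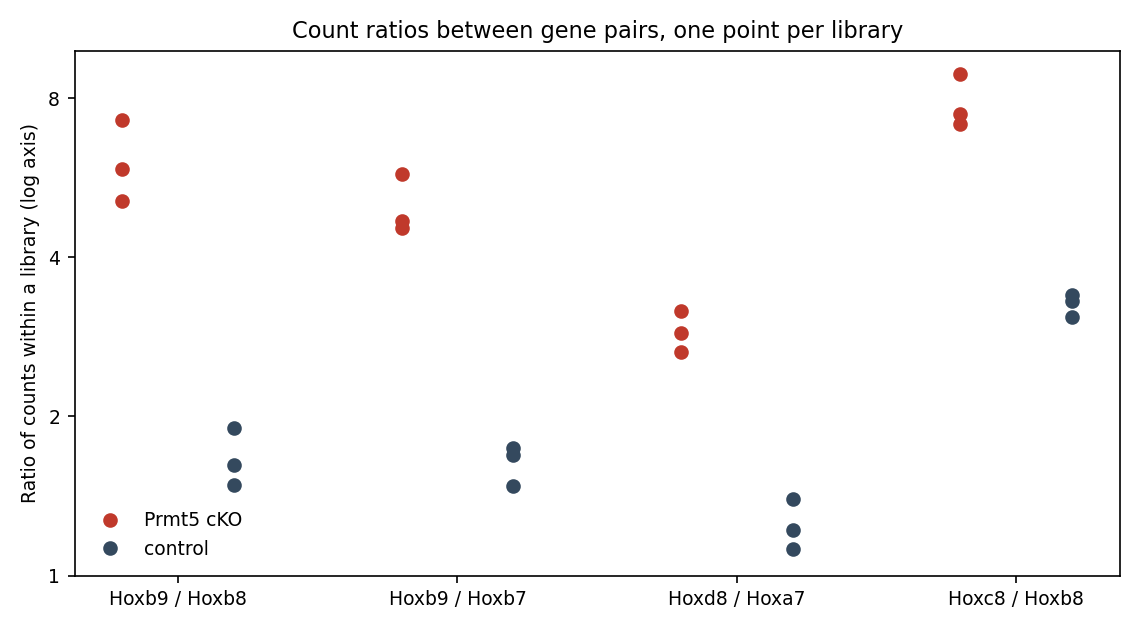
Ratio of counts between gene pairs within each library (log axis), Prmt5 cKO left of control, 1 point per library. In all 4 pairs the 3 Prmt5 cKO libraries lie above the 3 control libraries.

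By cluster, HoxA had a median log2 fold change of -0.24 over 10 tested members, of which 8 were negative, 2 were called lower and 0 higher. HoxB had a median of -0.14 over 8 tested members, with 1 called higher and 2 lower. HoxC had a median of 0.21 over 7 tested members and HoxD of 0.45 over 6, with 2 and 3 called higher and 0 lower in each. The shares over all tested genes were 16.3% higher and 19.6% lower, and each cluster has few members. The signs of HoxA and HoxB turn positive with the pan-epithelial scaling and those of HoxC and HoxD turn negative with the dermal fibroblast scaling. Without cKO library 1 the HoxA median was -0.00081 and the HoxD median 0.31. Differences between clusters were not tested.

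As shares of the summed Hox RPKM, which do not depend on scaling, HoxA held 17.3%, 22.4% and 19.2% in cKO libraries 1, 2 and 3, against 28.7%, 28.5% and 27.3% in control libraries 1, 2 and 3. HoxD held 26.9%, 25% and 27.7% in cKO libraries, against 20.4%, 20.4% and 22.4% in control libraries. HoxC held 31.5%, 30.6% and 31.7% in cKO libraries, against 26.4%, 28.6% and 29.0% in control libraries. Every cKO library thus had a smaller HoxA share and larger HoxC and HoxD shares than every control library. Single abundant members weighed heavily in the HoxA and HoxD shares. Mean HoxA sums were 20.05 RPKM in cKO skin and 28.23 RPKM in control skin, with Hoxa7 alone at 6.37 and 11.2 RPKM. Mean HoxD sums were 27.22 and 21.09 RPKM in the same order, with Hoxd8 alone at 19.3 and 14.6 RPKM. The shares therefore do not show a shift of all members of a cluster. The HoxB share overlapped between the groups, at 24.3%, 22% and 21.4% in cKO libraries and 24.5%, 22.4% and 21.4% in control libraries. The summed level of all Hox genes also overlapped, at 281, 261 and 265 CPM in cKO libraries and 253, 276 and 248 CPM in control libraries.

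By paralog number, paralogs 1 to 3 had a median log2 fold change of -0.16 over 7 tested members, with 2 called higher and 1 lower. Paralogs 4 to 8 had a median of -0.01 over 15, with 3 called in each direction, and all 15 were expressed above the filter. Paralogs 9 to 13 had a median of 0.21 over the 9 of 16 that were tested, with 1 called higher and 0 lower. These counts stand beside 16.3% called higher and 19.6% lower among all tested genes. All 3 paralogs numbered 10 had negative log2 fold changes with TMM scaling, between -0.47 and -0.14, and 0 of them were called. With the pan-epithelial scaling all 3 were called higher, at 0.86 for Hoxa10, 0.55 for Hoxc10 and 0.84 for Hoxd10.

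The remaining 21 tested members did not pass, with log2 fold changes between -0.64 and 0.50. Among these the groups did not overlap in CPM for Hoxa5, Hoxc8 and Hoxd9, and the same held for 49.9% of all tested genes. Hoxa5, which acts at cervical and thoracic levels and in the lung, had 6.35, 7.44 and 7.72 CPM in cKO libraries 1, 2 and 3, against 9.63, 9.75 and 8.06 CPM in control libraries 1, 2 and 3 (log2 fold change -0.35, adjusted p = 0.0632 by edgeR). Hoxc8 had 28.7, 28.5 and 33.3 CPM in cKO libraries, against 23.2, 28.2 and 22.3 CPM in control libraries, and its log2 fold change was 0.29 ± 0.11 (SE), adjusted p = 0.0664 by edgeR. Control library 2 nearly reached the cKO libraries, and without it Hoxc8 was called, at adjusted p = 0.0178 by edgeR. Leaving out any other library gave no call of Hoxc8, with adjusted p between 0.0812 and 0.198 by edgeR. Hoxd9 had a log2 fold change of 0.23 (adjusted p = 0.191 by edgeR).

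The values of 2 HoxA members depended on which cKO library was left out. Hoxa2, which patterns the second pharyngeal arch, had 1.51, 2.97 and 0.960 CPM in cKO libraries 1, 2 and 3, against 2.73, 3.02 and 2.79 CPM in control libraries 1, 2 and 3. Only cKO library 2 reached the controls, and the log2 fold change was -0.64, adjusted p = 0.218 by edgeR. Without cKO library 2 it was -1.2, adjusted p = 0.013, and without cKO library 3 it was -0.34, adjusted p = 0.456, both by edgeR. Hoxa4 had 1.22, 4.06 and 2.09 CPM in cKO libraries, against 2.84, 3.55 and 2.93 CPM in control libraries. Its log2 fold change was -0.33 in all libraries (adjusted p = 0.547 by edgeR). It was -0.91 without cKO library 2 and -0.014 without cKO library 1 (adjusted p of 0.0476 and 0.981 by edgeR). Hoxc10, a lumbar paralog, had a log2 fold change of -0.47 (adjusted p = 0.0869 by edgeR), and without control library 1 it was -0.60, adjusted p = 0.04. Leaving out any other library gave no call of Hoxc10, with adjusted p between 0.0676 and 0.259 by edgeR. Without control library 3 its log2 fold change was -0.33.

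Hoxc13, which directs keratin genes of hair and nail, had 1.28, 1.2 and 1.62 CPM in cKO libraries and 1.33, 1.19 and 0.996 CPM in control libraries. These overlapped, and Hoxc13 was not called. The 8 members below the filter were Hoxa13, Hoxb1, Hoxb13, Hoxc11, Hoxc12, Hoxd11, Hoxd12 and Hoxd13, most of them genes of the tail end and the distal limb. Hoxb13 and Hoxc12 had 0 counts in all 6 libraries, which allows a level of up to 0.0453 to 0.0854 CPM at 3 counts per library, for counting error only. Hoxc11 had 0 counts in the 3 cKO libraries and 3, 7 and 4 counts in control libraries 1, 2 and 3. Hoxb1, a hindbrain gene, had 12, 12 and 15 counts in cKO libraries and 3, 11 and 5 counts in control libraries. Hoxd13 had 3, 2 and 3 counts in cKO libraries and 0, 9 and 3 in control libraries, and Hoxa13, Hoxd11 and Hoxd12 had counts in control library 2 only, at 3, 9 and 3.

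The authors' deposited DESeq2 table called 6 members higher and 4 lower at an adjusted p under 0.05. In that table Hoxc8 passed, at a log2 fold change of 0.31 and an adjusted p of 0.0336, and Hoxd1 did not, at an adjusted p of 0.0755. The authors' deposited Sleuth table listed 32 members and held 3 with higher and 5 with lower values at a q under 0.05. Hoxa5 passed there, with a q of 0.0197, and Hoxc6 did not, with a q of 0.0821. For Hoxd3 the authors' deposited tables differed the most in size among called members, at a log2 fold change of 1.23 in the DESeq2 table and 0.19, converted to log2, in the Sleuth table, with a q of 0.747.

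Long non-coding RNAs of the Hox clusters included a pair of larger changes in HoxA. Of 14 entries, 9 were tested, 1 rose, 1 fell and 7 were not called, with a median log2 fold change of 0.31. Over all tested genes, 16.3% were called higher and 19.6% lower. Halr1 (chromosome 6, 52102949 to 52113684, plus strand), a transcript from beyond one end of HoxA, had 26, 21 and 34 counts in cKO libraries 1, 2 and 3, against 112, 134 and 87 counts in control libraries 1, 2 and 3. The groups were far apart, with a log2 fold change of -2.11 ± 0.30 (SE), adjusted p = 0.000892 by edgeR.

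Hotairm1 (chromosome 6, 52156902 to 52162119, plus strand), an antisense transcript of the HoxA cluster, had 4.82, 5.17 and 5.16 CPM in cKO libraries 1, 2 and 3, against 2.07, 2.85 and 1.99 CPM in control libraries 1, 2 and 3. Every cKO library lay above every control, and the log2 fold change was 1.12 ± 0.18 (SE), adjusted p = 0.00167 by edgeR. Hoxaas3 shares 586 exonic bases with Hoxa7 on the opposite strand, 20.4% of the exonic bases of Hoxa7. Library preparation kept strand, but the sources used here do not say whether counting used it. Hoxaas3 was not called (log2 fold change -0.27). Halr1 and Hotairm1 passed the test with the pan-epithelial scaling in the same directions, and Halr1 did with the dermal fibroblast scaling. Hotairm1 was not called with the dermal fibroblast scaling, at a log2 fold change of 0.52 (adjusted p = 0.0921 by edgeR). Hotair and Hottip were at 0 in all 6 libraries, and Hotairm2 and Haglros were not matched in the table.

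Of the 12 cofactor genes, all tested, 3 rose, 3 fell and 6 were not called, with a median log2 fold change of 0.04. The shares over all tested genes were 16.3% higher and 19.6% lower. Meis1 had 40.0, 38.2 and 40.3 CPM in cKO libraries 1, 2 and 3, against 27.1, 29.5 and 33.7 CPM in control libraries 1, 2 and 3 (log2 fold change 0.39 ± 0.08, SE, adjusted p = 0.00736 by edgeR). Its paralog Meis2 averaged 50.2 ± 1.42 CPM in cKO skin and 39.0 ± 4.48 CPM in control skin (SD, n = 3 each), with log2 fold change 0.36. Pbx3 had 16.3, 19.0 and 18.1 CPM in cKO libraries, against 26.6, 30.1 and 24.5 CPM in control libraries (log2 fold change -0.61 ± 0.10, SE, adjusted p = 0.00197 by edgeR). MEIS and PBX proteins bind DNA beside Hox proteins, and the Meis1 and Meis2 values lay above all controls while those of Pbx3 lay below them. Hmgb1, a chromatin protein gene and the most expressed of the list, fell, with a log2 fold change of -0.22, and the other riser was Btg2, an antiproliferative gene, at 1.12. With the pan-epithelial scaling Pbx3 and Hmgb1 took positive signs, and with the dermal fibroblast scaling Meis1 and Meis2 took negative signs. All 12 cofactor genes, Pbx3 and Hmgb1 among them, were called higher with the pan-epithelial scaling. With the dermal fibroblast scaling 1 of the 12 was called higher and 7 lower. The Cdx, Evx and neighbouring homeobox genes, regulators or relatives of the Hox clusters, had 0 of 8 above the filter, and Cdx2, Cdx4, Evx1, Gsx1, Gsx2 and Pdx1 were at 0 in all libraries.

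Of 23 Polycomb genes, 1 rose, 8 fell and 14 were not called with TMM scaling, against 16.3% higher and 19.6% lower among all tested genes, and their log2 fold changes had a median of -0.08. Cbx7, a chromodomain subunit of Polycomb repressive complex 1, averaged 2.58 ± 0.323 CPM in cKO skin and 7.47 ± 1.05 CPM in control skin (SD, n = 3 each), with log2 fold change -1.53 ± 0.16 (SE), adjusted p = 0.000175 by edgeR. Its relatives Cbx2 and Cbx6 fell, with log2 fold changes of -0.50 and -0.26, and Cbx8 was not called (log2 fold change -0.063). Phf1, an accessory subunit of complex 2, rose by 0.55. The most expressed members, Rbbp4 and Rbbp7, had log2 fold changes of -0.02 and -0.01 and were not called, as were Ezh2, Eed and Suz12, the core of complex 2. Of 13 Trithorax and H3K27 demethylase genes, 0 rose, Ash2l and Kmt2c fell, with log2 fold changes of -0.30 and -0.22, and 11 were not called. Kmt2d, the most expressed of these, had a log2 fold change of 0.08. Cbx7 kept its direction under the pan-epithelial and the dermal fibroblast scalings. Cbx2, Cbx6, Ash2l and Kmt2c took positive signs with the pan-epithelial scaling, and Phf1 a negative sign with the dermal fibroblast scaling. With the pan-epithelial scaling all 13 Trithorax and H3K27 demethylase genes were called higher, and of the 23 Polycomb genes 20 were called higher and 1 lower. With the dermal fibroblast scaling all 13 and 22 of the 23 were called lower.

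Retinoic acid is a known inducer of low Hox paralogs. Of the 16 tested genes of its receptors and metabolism, 5 rose, 5 fell and 6 were not called, with a median log2 fold change of 0.11. Over all tested genes, 16.3% were called higher and 19.6% lower. The binding protein gene Crabp2 averaged 12.3 ± 0.563 CPM in cKO skin and 31.4 ± 4.02 CPM in control skin (SD, n = 3 each), with log2 fold change -1.35, and the receptor gene Rxra fell by 0.96 on the log2 scale. The retinol transporter gene Stra6 rose by 1.36 and the receptor gene Rxrg by 1.26. Rxra, at 163.9 CPM in cKO skin and 319.5 CPM in control skin, and Crabp1, at 291.6 CPM in cKO skin and 211.7 CPM in control skin, were the most expressed. Rxra took a positive sign with the pan-epithelial scaling and Crabp1 a negative sign with the dermal fibroblast scaling.

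Of the 23 tested positional transcription factor genes other than Hox, 8 rose, 4 fell and 11 were not called, with a median log2 fold change of 0.30. The shares over all tested genes were 16.3% higher and 19.6% lower. Tbx15, a regulator of dorsoventral skin identity and the most expressed of the list, averaged 142.6 ± 6.0 CPM in cKO skin and 108.0 ± 3.58 CPM in control skin (SD, n = 3 each), with log2 fold change 0.40 ± 0.05 (SE), adjusted p = 0.000493 by edgeR. The homeobox genes Dlx5, Dlx3 and Barx2 fell, with log2 fold changes of -2.48, -1.72 and -1.30. Tbx5, a forelimb gene, rose by 1.02. Dlx5, Dlx3 and Barx2 kept their direction under the pan-epithelial and the dermal fibroblast scalings, and Tbx15 took a negative sign with the dermal fibroblast scaling.

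**Figure D5:**
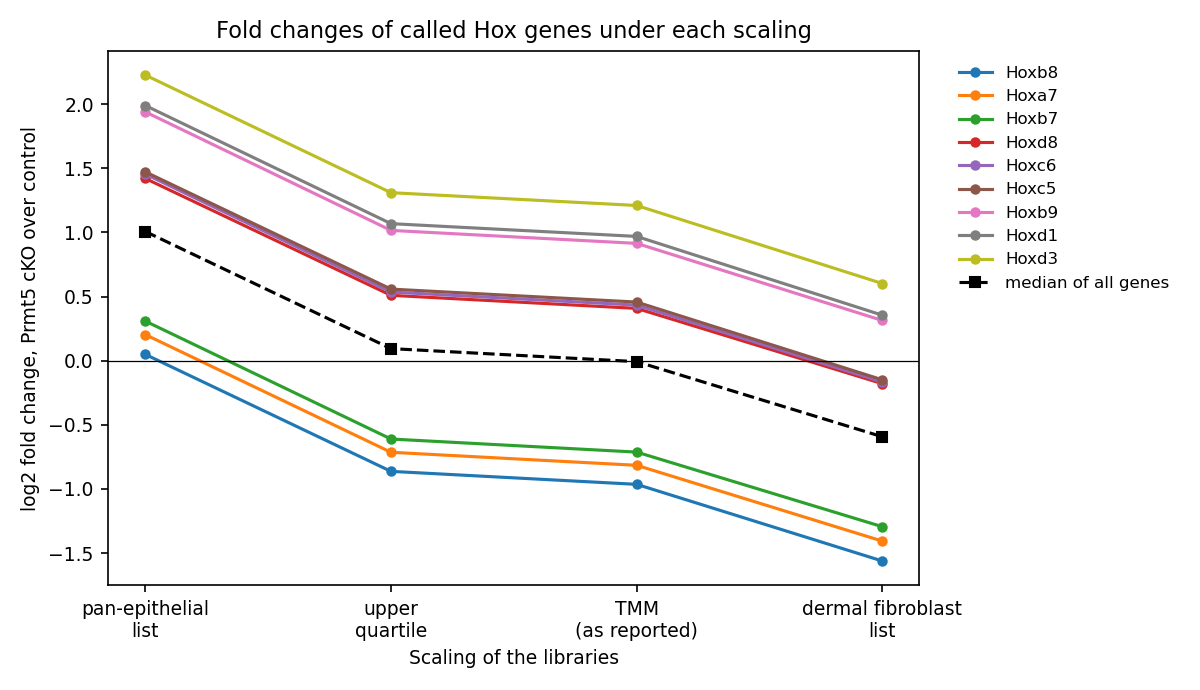
Log2 fold change (Prmt5 cKO over control) of 9 called Hox genes under 4 scalings of the libraries, with the median of all genes as a dashed line with squares. By construction all lines shift nearly in parallel with the median, which is 1.01 with the pan-epithelial list and -0.59 with the dermal fibroblast list, so Hoxa7, Hoxb8 and Hoxb7 are negative under 3 of the 4 and Hoxc5, Hoxc6 and Hoxd8 are positive under 3 of the 4.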

How the data were processed

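RNA was measured in 6 libraries of back skin, prepared with a stranded mRNA kit per the labels' protocols. The submitters' processing notes name STAR, StringTie, DESeq2 and the build mm10, and which tool made the counts is not given in the sources used here. Deposited by the authors were whole-number counts per gene, a table of log2 fold changes and adjusted p-values from DESeq2, and a table of Sleuth values, whose effect b is on the natural log scale (median ratio to the log2 fold change 0.696), with p-values and q-values. More genes held a count of 3 than of 2 in each library (994 against 808 in control library 1), so a count may stand for less than 1 read and floors may be too narrow. No pair of libraries agreed within sampling noise.

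All 6 libraries were fitted with edgeR 4.0.16 (R 4.3.3), with filterByExpr (19227 genes kept), TMM scaling, the quasi-likelihood test with no covariate and Benjamini-Hochberg adjustment at 0.05. The SE is the log2 fold change divided by the square root of F. The biological coefficient of variation was 15.5%. The fit was tested on simulated data. RPKM uses exon lengths of the GENCODE annotation of GRCm38, which held 99.5% of identifiers. Alternatives were other scalings, filters, DESeq2 1.42.0, limma 3.58.1 (voom), a replicate block, a stricter threshold and leaving out each library. An exact permutation test of 3 against 3 cannot go below p = 0.1 and was not used.

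The members and gene lists were chosen with earlier results of these data known. Named genes are called members, the most abundant member of each cluster, filtered members, and of each list the called genes with the largest changes and the most expressed. Other members were named after their values were seen. Some genes that count toward the totals are not reported here.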

Additional observations from a re-analysis of the deposited data

How the results depend on the processing

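Of the alternatives, RLE scaling, no filter, a CPM filter (under which Hoxd1 was not tested), DESeq2 and limma-voom left each count of calls within 1.5 times, and with DESeq2 Hoxd1 was not called and Hoxc8 was. With the dermal fibroblast scaling 11156 genes were called, 0 Hox genes higher and 16 lower, and with the pan-epithelial scaling 16381 genes, 26 Hox genes higher and 0 lower. All-gene calls split into 385 higher and 10771 lower with the first and 15626 higher and 755 lower with the second, and into 4514 higher and 2719 lower with upper-quartile scaling, which moves the all-gene median by 0.101. The Hox median log2 fold change was 0.086 with upper-quartile, -0.61 with dermal fibroblast and 1.00 with pan-epithelial scaling. Dermal fibroblast and pan-epithelial scaling gave medians of -0.81 and 0.76 in HoxA, -0.74 and 0.88 in HoxB, -0.36 and 1.23 in HoxC, -0.15 and 1.47 in HoxD, -0.74 and 0.86 in paralogs 1 to 3, -0.61 and 1.00 in paralogs 4 to 8, and -0.37 and 1.23 in paralogs 9 to 13, which had 0.31 with upper-quartile scaling. Signs turned with the pan-epithelial scaling for Hoxa2 (0.38), Hoxa4 (0.67), Hoxa5 (0.66), Hoxa7 (0.20), Hoxb7 (0.31), Hoxb8 (0.049) and Hoxc10 (0.55). They turned with the dermal fibroblast scaling for Hoxc5 (-0.15), Hoxc6 (-0.17), Hoxc8 (-0.29), Hoxd4 (-0.12), Hoxd8 (-0.18) and Hoxd9 (-0.35). Of the members in these lists of turned signs, only Hoxa5 and Hoxc10 were called in the new direction, with the pan-epithelial scaling. A further 14 tested members, none called with TMM scaling, are not in these lists. With the pan-epithelial scaling 9 of those 14 changed sign, and all 14 were called higher. With the dermal fibroblast scaling 5 of the 14 changed sign, and 8 were called lower. The shifts follow from the construction of the scalings, which hold the summed markers of a list equal.

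At an adjusted p of 0.01, 4398 genes and 3 Hox genes higher were called. Leaving out 1 library gave 5705 to 5897 called genes, 3 to 6 Hox genes higher and 4 to 6 lower, with 3 higher without cKO library 1 or control library 1. The medians then ranged from -0.017 to 0.077 over all Hox genes, from -0.34 to -0.00081 in HoxA, from -0.25 to -0.09 in HoxB, from 0.22 to 0.30 in HoxC and from 0.31 to 0.54 in HoxD. By paralog class they ranged from -0.28 to -0.08 for 1 to 3, from -0.07 to 0.04 for 4 to 8 and from 0.14 to 0.22 for 9 to 13. The cause was not tested. Same-numbered cKO and control libraries did not deviate together (Pearson r of -0.079, -0.043 and -0.062), so these values give no sign that the numbers pair them. Deviations from means of 3 libraries hold such correlations near 0 in sum. The check therefore cannot exclude another pairing or a shared batch. With the replicate block, 3 Hox genes were called higher, and Hoxc5, Hoxc6 and Hoxd1 had adjusted p of 0.0525, 0.0568 and 0.088 by edgeR. Low counts limit Hoxd1, Hoxd3 and the 8 members below the filter.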
